A study of Mus musculus with 151 samples.

Results

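The cells described here are 46 induced outer hair cells (P14_iOHCs), each picked by hand and sequenced alone at postnatal day 14, out of 151 single hair cells in the series. They were ranked by how much *Tbx2* RNA they still held, and the 23 cells with the most were set against the 23 with the least. *Tbx2* CPM (the count of a gene divided by the total of its cell, times 1000000) chose both sets of cells, which are called Tbx2-high and Tbx2-low cells, so *Tbx2* itself is given only as a description.

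The P14_iOHCs came from C57BL/6 mice that were heterozygous for vGlut3-P2A-iCreER and for Ai9 and carried *Tbx2* as flox/-. The iCreER recombinase is made from the *Slc17a8* (vGlut3) locus, tamoxifen was given in the first days after birth, and Ai9 turns on the red protein Tdtomato where Cre has acted. Small Tdtomato+ cells were taken as iOHCs, and larger ones were not picked. The 55 P14_WT IHCs and 50 P30_WT IHCs, at days 14 and 30, came from mice with vGlut3-P2A-iCreER and Ai9 and both wild-type *Tbx2* alleles. All 3 groups therefore share the driver and the reporter. The mouse behind each cell is not named in the labels. The 46 cells count as 1 sample, no test across genes was made, and errors are the spread between cells.

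TBX2 is a T-box transcription factor that binds DNA and mostly represses its targets. In the cochlea, inner hair cells (IHCs) pass sound signals to the auditory nerve through ribbon synapses that depend on the glutamate transporter vGlut3 and on otoferlin, whereas outer hair cells (OHCs) amplify sound by changing their length with the motor protein prestin (*Slc26a5*). *Tbx2* is known as a gene of IHCs that keeps them from taking the OHC fate, and supporting cells next to the IHCs can express it too.

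The *Tbx2* gene spans chr11:85832551-85841948 on the + strand of GRCm38 (ENSMUSG00000000093.6, GENCODE release M21), with 7 exons of 3626 bases in all. The floxed allele loses exon 2, a wholly coding exon of 268 bases at chr11:85834620-85834887. The exon is shown because its loss is what makes the allele null, in capitals between the last 15 bases of exon 1 and the first 15 of exon 3.
Tbx2 exon 2: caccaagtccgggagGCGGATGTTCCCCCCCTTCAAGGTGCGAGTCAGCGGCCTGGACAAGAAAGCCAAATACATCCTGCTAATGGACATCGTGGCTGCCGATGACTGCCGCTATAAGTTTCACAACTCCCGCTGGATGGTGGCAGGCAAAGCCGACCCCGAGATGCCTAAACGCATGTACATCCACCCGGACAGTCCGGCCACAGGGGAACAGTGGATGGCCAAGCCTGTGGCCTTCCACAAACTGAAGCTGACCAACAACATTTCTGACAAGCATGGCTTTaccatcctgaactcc
Exon 2 makes up 7.39% of the exon length, and its 268 bases leave a remainder of 1 when divided by 3. The other 92.6% of the exon length stays in the locus after recombination, and the counts are per gene. RNA of the intact and of the recombined allele therefore cannot be told apart in these counts.

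*Tbx2* was spread widely between the P14_iOHCs. The Tbx2-high cells held 41.6 to 427 CPM with a median of 88.3 CPM. The Tbx2-low cells held 0 to 41.2 CPM with a median of 9.44 CPM. The last cell inside the Tbx2-high set stood at 41.6 CPM (860 counts) and the first cell outside it at 41.2 CPM (396 counts), so the border runs through a continuous range. In the P14_WT IHCs *Tbx2* ranged from 49.5 to 754 CPM with a median of 240 CPM. Of the 46 P14_iOHCs, 19 reached the lowest P14_WT IHC and 3 reached the median of that group. In the paper's germ-line *Tbx2* knockout the whole locus is deleted. With flox/- the P14_iOHCs therefore hold only the floxed copy, while the wild-type IHCs hold both alleles. The levels were not adjusted for this. At the other end, 4 cells had 3 counts or fewer, and 12 cells lay under 10 CPM. A count of 3 in a cell corresponds to 0.131 to 0.495 CPM in these libraries.

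**Figure D1:**
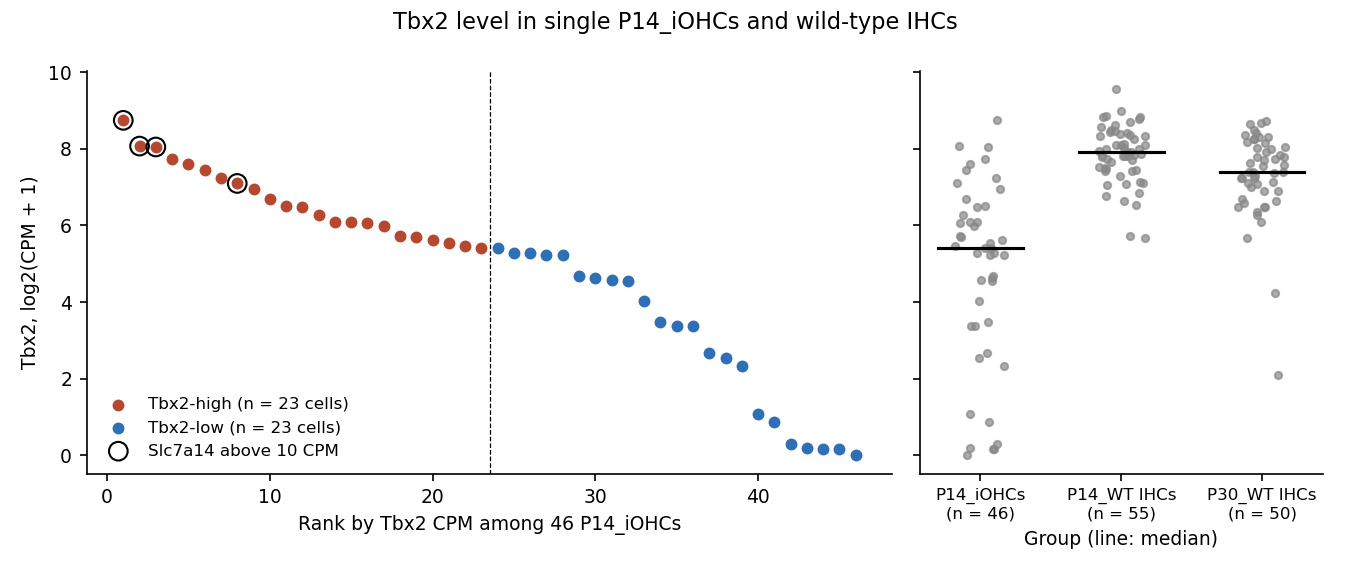
*Tbx2* level as log2(CPM + 1) in each of the 46 P14_iOHCs by rank (left; red, Tbx2-high; blue, Tbx2-low; black rings, cells with *Slc7a14* above 10 CPM) and in the 3 groups (right; 1 point per cell, line at the median). The dashed line between ranks 23 and 24 falls where the levels run on without a break, and the upper end of the P14_iOHCs overlaps the wild-type IHCs.

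Among the Tbx2-high cells, 4 libraries stood apart from their label by holding IHC markers. They are the cells of *Tbx2* rank 1, 2, 3 and 8 (numbers 44, 1, 18 and 29 of the group), and they were noticed after the values were seen. *Slc7a14*, an amino acid transporter family gene used as an IHC marker, stood at 126, 170, 203 and 320 CPM in these cells, and no other P14_iOHC exceeded 0.106 CPM. All 4 lay within the range of the P14_WT IHCs for this gene, which began at 99.0 CPM. In the same order, *Slc17a8* stood at 722, 586, 935 and 338 CPM, where the other 42 cells reached at most 341 CPM. *Otof*, which encodes the calcium sensor otoferlin for vesicle release, stood at 3235, 2307, 1500 and 1320 CPM, where the others reached at most 816 CPM. *Calb2*, another IHC marker, stood at 615, 17827, 6150 and 8836 CPM, where the P14_WT IHCs began at 6371 CPM. The value of 615 CPM lay under the median of the other 42 cells, 1564 CPM. OHC markers were still present in the 4 cells. *Slc26a5* stood at 142, 799, 514 and 220 CPM, above the highest P14_WT IHC (4.01 CPM). *Ikzf2*, a transcription factor of OHCs, was at 75.5, 197, 0 and 68.6 CPM. *Ocm*, the OHC calcium buffer oncomodulin, was at 614, 16575, 9093 and 23598 CPM. The marker differences, the list medians and the calls are given below with and without these 4 libraries. They were noticed for their IHC markers and all lie in the Tbx2-high set. Leaving them out thus lowers the differences of *Slc17a8* and *Otof* by construction, and these changes are descriptions.

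**Figure D2:**
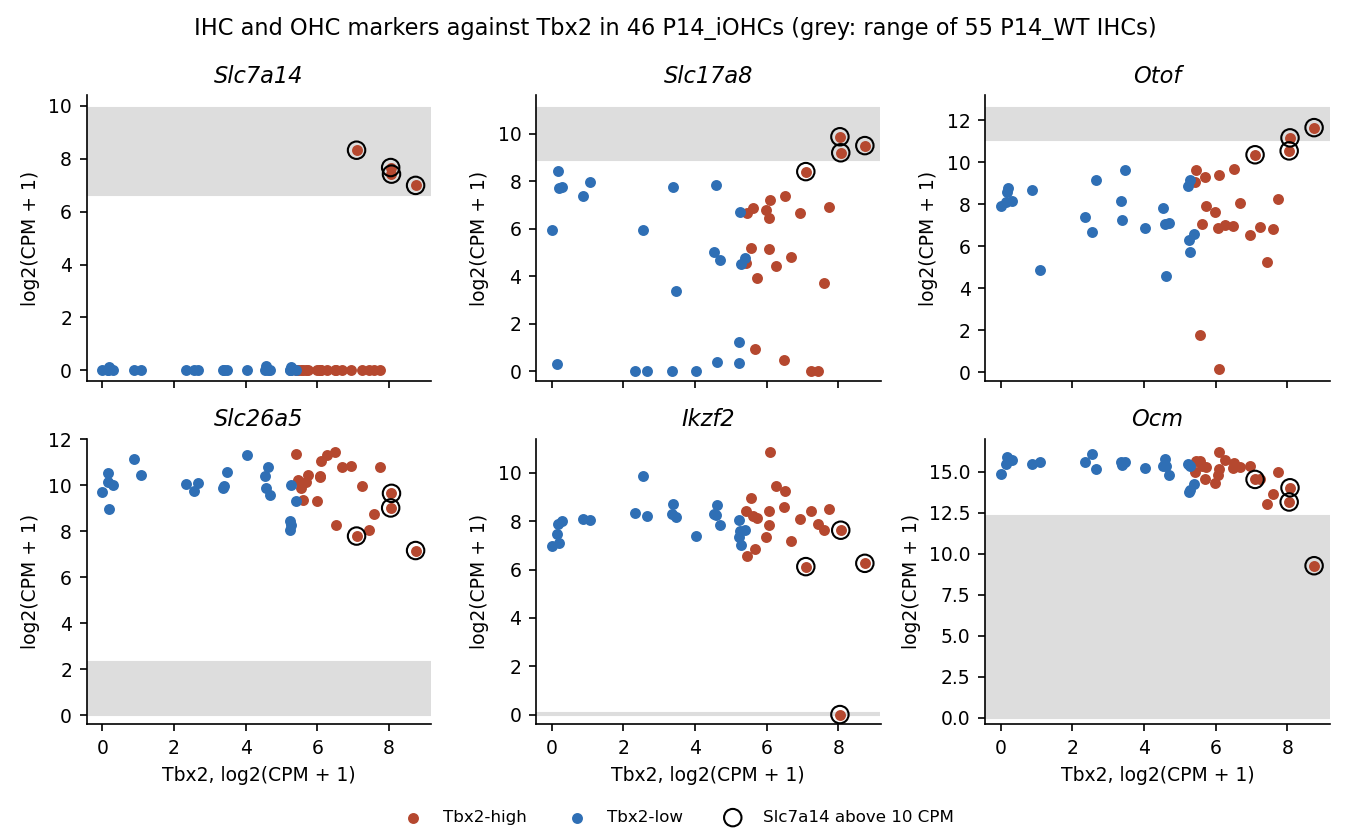
Level of 3 IHC markers (top) and 3 OHC markers (bottom) against *Tbx2*, both as log2(CPM + 1), with 1 point per P14_iOHC (red, Tbx2-high; blue, Tbx2-low; rings, *Slc7a14* above 10 CPM) and the range of the 55 P14_WT IHCs in grey. The 4 ringed cells lie in or next to the grey band for these IHC markers. For *Slc26a5* they run from 142 to 799 CPM (median 367) and overlap the other 42 cells (262 to 2787 CPM, median 1088). The other cells show no steady slope for *Otof* or *Slc26a5*.

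The libraries differed between the sets as follows. Total counts ran from 6059570 to 22963196, with a median of 15275140 in the Tbx2-high and 17252705 in the Tbx2-low cells. A gap between 10088095 and 12291116 separated 12 lower totals from 34 upper ones, and each *Tbx2* set held 6 lower and 17 upper totals. Genes with a count had a median of 9295 in Tbx2-high and 8322 in Tbx2-low cells. Mitochondrial genes took a median of 6.79% and 5.56% of the counts. At 1 CPM or more, *Xist* was found in 21 cells and Y-linked RNA in 20, with no cell holding both at that level, and both kinds were in both sets, so at least 2 mice contributed to each. No pair of the 1035 possible pairs of libraries was identical.

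Markers of other cell types were compared in the same libraries. The score of 13 measured supporting-cell markers, their mean log2(CPM + 1), ranged from 0.896 to 8.16 in Tbx2-high cells (median 4.74) and from 0.949 to 7.69 in Tbx2-low cells (median 3.55). In P14_WT IHCs the median score was 1.15 and the highest 5.68, and 8 Tbx2-high and 7 Tbx2-low cells lay above every one of them. The 13 genes had a median difference of 0.57 between the sets, with 9 positive (69.2%, against 55.8% of all genes). None was past the limit defined below, and 2 (15.4%, against 8.59% of all genes) were higher by at least 1. These were *Otog* at 1.25 (SD 3.50) and *Sox9* at 1.10 (SD 3.24). Among the defining markers, *Gjb6*, a connexin of supporting cells, had medians of 370 and 262 CPM, and *Sox2*, their transcription factor, was at a median of 0 in both sets. The summed level of all 18 markers ranged from 2684 to 20241 CPM in Tbx2-high and from 2280 to 16049 CPM in Tbx2-low cells. *Fbxo2* alone had medians of 5111 and 5098 CPM, and 5318 CPM in P14_WT IHCs. *Prox1* was at 0 in all 46 cells. The part of supporting-cell RNA in the differences below was not tested.

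Few markers of other kinds were measured. Of the 7 genes for glia 3 were measured (median difference 0.19), of the 8 for neurons 2 (0.22) and of the 7 for fibroblasts or mesenchyme 4 (0.38). None of these passed the limit, and 4 reached a size of 1, with large spreads (*Cnp*, a myelin enzyme, at -1.22, the neurofilament gene *Nefm* at 1.03, and the matrix genes *Dcn* and *Lum* at 1.21 and 1.16). None of 5 blood or 7 immune genes was measured, and the summed level of the immune genes stayed between 0 and 12.1 CPM. For the 7 glia genes it stayed between 0 and 196 CPM, for the neuron genes between 0 and 398 CPM, and *Gap43* and *Postn* were at 0 in every cell. For the fibroblast genes it ran from 0 to 1812 CPM in Tbx2-high and from 0.365 to 4594 CPM in Tbx2-low cells, with *Lum* alone up to 4251 CPM. The 5 blood genes reached 67.9 and 496 CPM at most in the respective sets, with a median of 0 in each.

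Across the transcriptome the sets of cells were close to each other relative to the spread between single cells. A gene was measured where at least 10 of the 46 cells had 5 or more counts, which left 11159 genes without *Tbx2*. The difference is the mean log2(CPM + 1) of the Tbx2-high cells minus that of the Tbx2-low cells, and a gene was past the limit where this was at least 1 in size and at least as large as the pooled SD between cells. Past it were 6 higher genes (0.0538% of those measured) and 5 lower genes (0.0448%). With DESeq2 size factors these counts were 4 and 7. The median difference of all genes was 0.074, the median pooled SD was 2.36, and the largest ratio of difference to SD was 1.16 upward and -1.14 downward. A size of 1 alone, with no regard to spread, was reached by 959 genes upward (8.59%) and 505 downward (4.53%), with DESeq2 size factors by 793 and 670, and on log2(CPM + 0.1) by 2128 and 1064. The limit was placed on data with many zeros. Without the 4 *Slc7a14* cells the count past it was 10 higher and 7 lower, or 40 and 4 when ranked again. Among the 31 cells without a high supporting-cell score, ranked again, it was 28 higher and 56 lower.

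**Figure D3:**
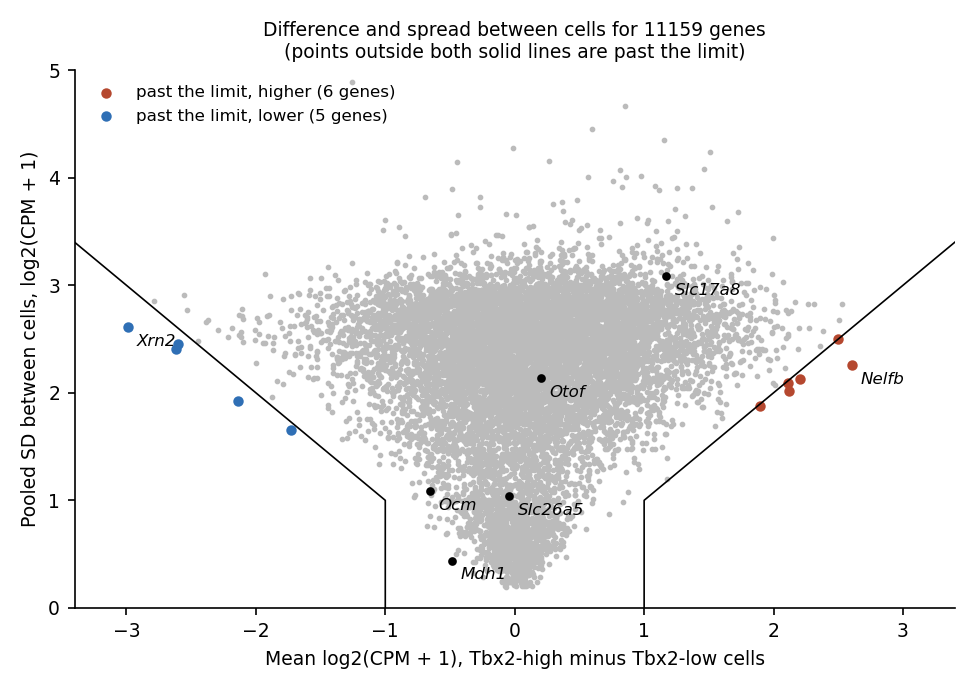
Difference in mean log2(CPM + 1) between Tbx2-high and Tbx2-low cells (horizontal) and pooled SD between cells (vertical) for the 11159 measured genes, 1 point each. Points beyond the solid lines are past the limit (6 red, higher; 5 blue, lower), and the IHC and OHC markers in black lie inside, *Slc17a8* at a difference of 1.17 with an SD of 3.09.

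The IHC markers showed no shift between the sets beyond the spread of cells. *Slc17a8*, which encodes the vesicular glutamate transporter vGlut3, ranged from 0 to 935 CPM in Tbx2-high cells (median 85.5, with counts in 21 of 23) and from 0 to 341 CPM in Tbx2-low cells (median 26.6, counts in 19 of 23). Its difference was 1.17 against a pooled SD of 3.09, 0.37 without the 4 *Slc7a14* cells and 1.99 among the 31 cells without a high supporting-cell score, ranked again. The *Slc17a8* locus also carries the iCreER insert. The ranges overlapped from 0 to 341 CPM, and several of the highest Tbx2-low values were in the cells with the least *Tbx2*. In the 7 cells with the least *Tbx2*, up to 1.11 CPM, *Slc17a8* ran from 0.231 to 341 CPM with a median of 208 CPM. *Otof* ranged from 0.104 to 3235 CPM in Tbx2-high cells (median 245) and from 23.3 to 803 CPM in Tbx2-low cells (median 224). Its difference was 0.20 with an SD of 2.14, and it turned to -0.47 without the 4 cells. *Calb2*, the calcium buffer calretinin, had medians of 1635 and 1594 CPM and a difference of 0.22 with an SD of 1.24, which turned to -0.13 without them. *Tbx3*, the nearest relative of *Tbx2* among the T-box genes, had 1 count in 1 of the 46 cells and was not measured. The upper limit that a count of 0 allows is the 3 counts given above.

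The OHC markers were at high levels in both sets. *Slc26a5* ranged from 142 to 2787 CPM in Tbx2-high cells (median 1123) and from 262 to 2508 CPM in Tbx2-low cells (median 1027). Its difference of -0.041, with an SD of 1.04, turned to 0.26 without the 4 *Slc7a14* cells. Prestin RNA thus gave no order between the sets. *Ikzf2* had medians of 272 and 261 CPM, with counts in 22 of 23 and in 23 of 23 cells, and its difference of -0.29 (SD 1.48) turned to 0.28 without the 4 cells. *Lbh*, a transcription cofactor used as an OHC marker, had medians of 725 and 893 CPM and a difference of -0.67 (SD 1.71), or -0.19 without them.

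*Ocm* and *Sri*, both genes of calcium-binding proteins, leaned lower where *Tbx2* was higher. *Ocm* ranged from 614 to 74981 CPM in Tbx2-high cells (median 31970) and from 13996 to 69471 CPM in Tbx2-low cells (median 44555). Of the Tbx2-high cells, 5 of 23 lay above the Tbx2-low median. The difference was -0.65 with an SD of 1.09, so it stayed within the spread of cells, and it was -0.26 without the 4 *Slc7a14* cells. The Spearman rho with *Tbx2* over the 46 cells was -0.55, and -0.43 over the 42 others. *Sri* (sorcin) had medians of 1980 and 2589 CPM, a difference of -0.43 (SD 0.69; -0.25 without the 4 cells) and a rho of -0.50 over 46 and -0.37 over 42 cells. With the supporting-cell score the rho was -0.45 for *Ocm* and -0.44 for *Sri*, and in the 31 cells without a high score their rho with *Tbx2* was -0.48 and -0.45. All genes of a library share its total, and these rho values are descriptions. The general hair cell genes *Myo6* and *Myo7a*, unconventional myosins of the hair bundle and its base, had differences of -0.15 (SD 0.67) and -0.18 (SD 1.55).

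The 6 higher genes were mostly genes found in more of the Tbx2-high cells. Of them, *Mospd2*, *Rpusd4*, *Bsn* and *Syn1* had counts in too few Tbx2-low cells to be measured from those cells alone. For these genes, being measured itself required counts in Tbx2-high cells, so the filter partly fixed this pattern. With no filter on low counts, 24925 genes were compared and no further gene was past the limit upward. The 6 genes had to stay past it, since the filter does not change the difference or SD of a gene. *Nelfb* (chr2:25199712-25211489, - strand), a subunit of the complex that pauses RNA polymerase II, ranged from 1.03 to 291 CPM in Tbx2-high cells (median 39.4) and from 0 to 120 CPM in Tbx2-low cells (median 6.52). Its difference was 2.61 with an SD of 2.26. It had counts in 23 of 23 Tbx2-high cells and in 18 of 23 Tbx2-low cells. The sets overlapped, with 20 of the Tbx2-high cells above the Tbx2-low median. *Cisd2* (chr3:135406412-135423925, - strand), an iron-sulfur protein of the endoplasmic reticulum and outer mitochondrial membrane, ranged from 34.4 to 396 CPM (median 179) in Tbx2-high and from 0 to 225 CPM (median 84.1) in Tbx2-low cells. The difference of 2.20 (SD 2.12) came with a low end of the Tbx2-low cells that had no match among the Tbx2-high cells.

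*Mospd2* (chrX:164936169-164980375, - strand), a membrane protein that tethers the endoplasmic reticulum to other organelles, had counts in 15 Tbx2-high and 5 Tbx2-low cells, and a median of 25.7 against 0 CPM. Its difference was 2.50 with an SD of 2.50, right at the limit. *Rpusd4* (chr9:35267865-35277731, + strand), a mitochondrial pseudouridine synthase, had counts in 12 and 5 cells, up to 161 CPM in Tbx2-high and 7.34 CPM in Tbx2-low cells, and differed by 2.11 (SD 2.09). For both genes most Tbx2-low cells were at 0.

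The other pair of higher genes encodes presynaptic proteins. *Bsn* (chr9:108096022-108190384, - strand) encodes bassoon, the scaffold that anchors synaptic ribbons at the release sites of hair cells. It had counts in 13 of 23 Tbx2-high cells and in 4 of 23 Tbx2-low cells. Levels reached 141 CPM in Tbx2-high cells (median 3.79) and 15.4 CPM in Tbx2-low cells (median 0), a difference of 2.12 with an SD of 2.01. It was 2.58 without the 4 *Slc7a14* cells, 0.85 among the 12 cells of the lower totals and 2.57 among the 34 of the upper totals. Among the 31 cells without a high supporting-cell score it was 1.92 and no longer past the limit. P14_WT IHCs had a median of 0 CPM for *Bsn* in these libraries. *Syn1* (chrX:20860511-20921004, - strand), which encodes the vesicle protein synapsin I, had counts in 11 and 4 cells, up to 128 and 7.25 CPM. Its difference was 1.89 (SD 1.88). *Syn1* falls outside the naming rule, since under 50% of the Tbx2-high cells had a count, and it is named after its values were seen.

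The 5 lower genes were led by *Xrn2*. This gene (chr2:147012996-147078000, + strand), for a nuclear exoribonuclease that acts in transcription termination, ranged from 0 to 180 CPM in Tbx2-high cells (median 0.303) and from 0 to 322 CPM in Tbx2-low cells (median 60.5). It had the largest difference in size of the 11 genes, -2.99 with an SD of 2.61. *Txnip* (chr3:96557957-96561883, + strand), the thioredoxin-binding protein whose RNA follows glucose supply, ranged from 0 to 436 CPM (median 56.7) in Tbx2-high and from 77.9 to 1608 CPM (median 146) in Tbx2-low cells. Each of the 23 Tbx2-low cells lay above the Tbx2-high median, and 5 Tbx2-high cells lay above the Tbx2-low median. The difference was -2.14 with an SD of 1.93, and -1.54 without the 4 *Slc7a14* cells, no longer past the limit. Its rho with the supporting-cell score was -0.33.

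Of the others, *Gamt* and *Agfg1* were lower mainly through cells near 0. *Gamt* (chr10:80258151-80261012, - strand), the last enzyme of creatine synthesis, had medians of 0.209 and 37.6 CPM and counts in 12 and 20 cells, with a difference of -2.62 (SD 2.41). *Agfg1* (chr1:82839483-82901182, + strand), a protein with nucleoporin-like repeats, had medians of 1.51 and 43.5 CPM and a difference of -2.60 (SD 2.46). *Trrap* (chr5:144767732-144859778, + strand), the scaffold of histone acetyltransferase complexes, had counts in all 46 cells, medians of 30.1 and 67.7 CPM and a difference of -1.72 (SD 1.66). For each of the 11 genes the ranges of the sets overlapped.

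**Figure D4:**
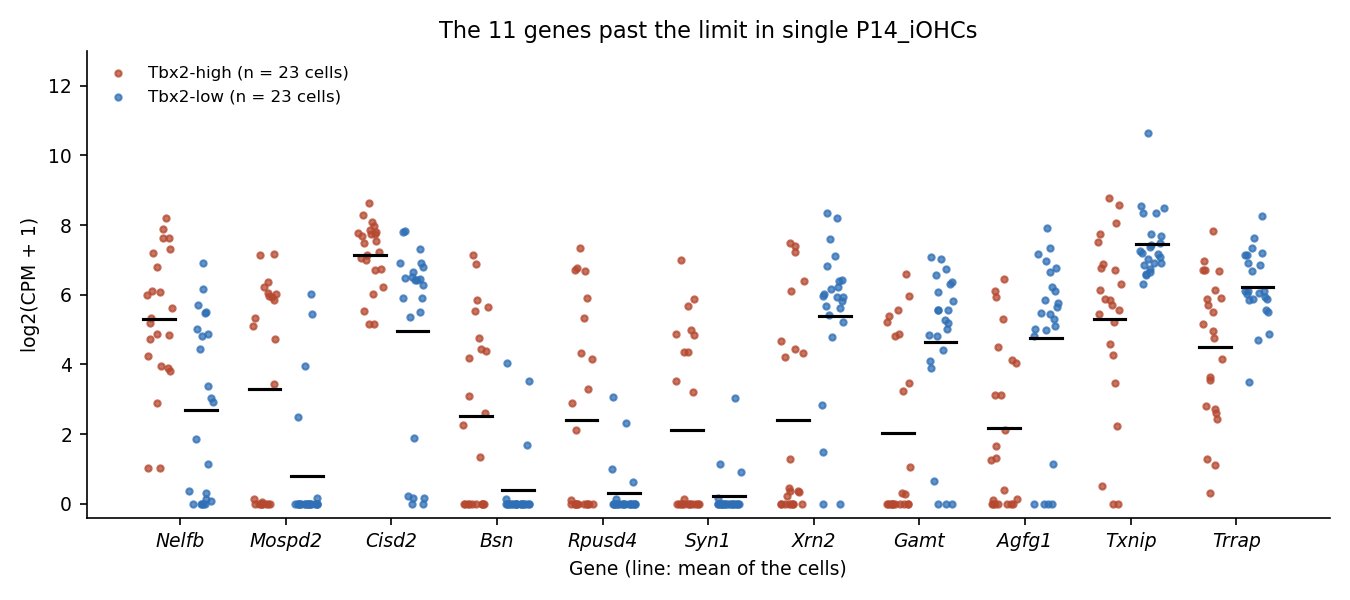
Level as log2(CPM + 1) of the 11 genes past the limit in each Tbx2-high (red) and Tbx2-low (blue) P14_iOHC, 23 cells a set, with a line at the mean. The 6 genes on the left have more cells above 0 among the Tbx2-high cells, the 5 on the right more or higher values among the Tbx2-low cells, and the ranges overlap for all 11.

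Some of these calls depended on single cells. *Nelfb*, *Xrn2*, *Gamt*, *Agfg1* and *Txnip* stayed past the limit when any of the 46 cells was left out, *Bsn* in 44 and *Cisd2* in 40 of the 46 runs. *Trrap* stayed in 37, *Rpusd4* in 17, *Syn1* in 16 and *Mospd2* in 14. Ranking by TMM-scaled *Tbx2* only swapped the cells of rank 23 and 24. After that swap *Nelfb*, *Mospd2*, *Syn1*, *Agfg1* and *Txnip* were past the limit. *Xrn2*, *Gamt*, *Trrap*, *Bsn*, *Cisd2* and *Rpusd4* were not. Without all 4 *Slc7a14* cells, and with the other 42 not ranked again, *Nelfb*, *Bsn*, *Agfg1*, *Gamt* and *Trrap* stayed past the limit. *Xrn2* (-2.50), *Txnip* (-1.54), *Cisd2* (2.02), *Mospd2* (2.32), *Rpusd4* (1.80) and *Syn1* (1.64) did not. When the other 42 cells were ranked again, only *Nelfb*, *Bsn*, *Mospd2* and *Gamt* of the 11 were past it. Without the 15 cells of high supporting-cell score, ranked again, *Bsn* (1.92), *Rpusd4* (2.18) and *Txnip* (-1.77) did not stay past it, and the other 8 did. *Nelfb* was also past it in each of the 19 other settings tried, and was the one gene of the 11 of which this held. Some of these settings could not change the call. Ranking within the lower and the upper totals gave the same sets of cells, and the settings of the filter leave the values of *Nelfb* as they are. The log2 ratio of mean CPM has no SD limit. Among the cells with *Xist* and the cells with Y-linked RNA, each ranked on its own, *Nelfb* was past the limit in both, together with *Mospd2*. These groups hold fewer cells, taken from the same 46. In them 348 and 317 of 11159 genes were past the limit upward, against 6 in the full split. The other 9 were past it in at most 1 of these groups of cells.

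By rank over the 46 cells, genes most like *Tbx2* were *Fblim1* (Spearman rho 0.54), *Cisd2* (0.52), *Cutal* (0.52), *Fmn1* (0.51) and *Sipa1l1* (0.49), among genes with a count in at least 50% of the cells. *Fblim1* and *Fmn1* encode a filamin-binding adaptor and a formin of the actin cytoskeleton, and *Sipa1l1* a regulator of the GTPase Rap. *Fblim1* had medians of 92.4 and 3.04 CPM in Tbx2-high and Tbx2-low cells, with a difference of 1.90 and an SD of 2.98. The genes running most against *Tbx2* were *Mdh1* (rho -0.55), *Ocm* (-0.55), *Trnp1* (-0.55), *Edf1* (-0.53) and *Trappc2* (-0.52). *Mdh1*, the cytosolic malate dehydrogenase, ranged from 570 to 1923 CPM in Tbx2-high cells (median 1095) and from 931 to 2644 CPM in Tbx2-low cells (median 1552). Its difference of -0.48 was under 1 but larger than its SD of 0.44, and it was -0.43 without the 4 *Slc7a14* cells. *Edf1*, a transcription coactivator, had medians of 271 and 457 CPM and a difference of -0.45 (SD 0.50). *Mdh1* and *Edf1* had a rho of 0.13 and -0.010 with the supporting-cell score. Without the 4 *Slc7a14* cells the rho with *Tbx2* was -0.52 for *Mdh1*, -0.50 for *Edf1* and 0.43 for *Cisd2*. The central 95% of all genes had a rho with *Tbx2* between -0.29 and 0.35.

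The IHC and OHC gene lists of the study were read as groups. The study drew them partly from P30_WT IHCs of this series, so they are not independent of it, although the P14_iOHCs were not used. Of 388 IHC genes without *Tbx2*, 317 were measured, and 215 of them (67.8%) had a positive difference, against 55.8% of all genes. Their median was 0.36, against 0.074 for all genes. None was past the limit, and 47 were higher (14.8%, against 8.59% of all genes) and 10 lower (3.15%, against 4.53%) by at least 1. Without the 4 *Slc7a14* cells the median was 0.082, against 0.047 for all genes. The leading measured members, named after their values were seen, were *Dstyk*, a kinase, at 2.03 (SD 2.33), *Fblim1* at 1.90, and *Dnajc5b*, a cysteine string protein of vesicles, at 1.81 (SD 3.21).

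Of 151 OHC genes, 140 were measured, with 35 positive differences (25.0%, against 55.8% of all genes) and a median of -0.36. None was past the limit, 4 were higher (2.86%, against 8.59% of all genes) and 16 lower (11.4%, against 4.53%) by at least 1, and the median without the 4 *Slc7a14* cells was -0.16. The 4 higher ones, named after their values were seen, were *Dhodh*, *Necab2*, *Pcolce2* and *Abcf2*, at 1.43, 1.25, 1.16 and 1.14. Among the lower ones was *Aqp5*, a water channel, at -1.91 (SD 2.53). The IHC median was 0.57 in the cells of lower totals and 0.21 in those of upper totals, and the OHC median -0.25 and -0.35. The IHC score of a cell, its mean log2(CPM + 1) over the measured IHC genes, had a rho of 0.43 with *Tbx2*. That rho was 0.29 without the 4 *Slc7a14* cells, and the rho with the supporting-cell score was 0.70. For the OHC genes these values were -0.29 (-0.12 without the 4 cells) and -0.060. The IHC list and the supporting-cell markers share 1 gene, *Gjb6*, and the cause of the rho of 0.70 was not tested. A high IHC score did not need the IHC markers. The cells of *Tbx2* rank 5 and 6 had scores of 4.52 and 4.53, with *Slc17a8* at 12.2 and 0 CPM and *Otof* at 114 and 37.4 CPM. After a linear fit on the supporting-cell score was taken out, the IHC median was 0.21 and the OHC median -0.35.

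**Figure D5:**
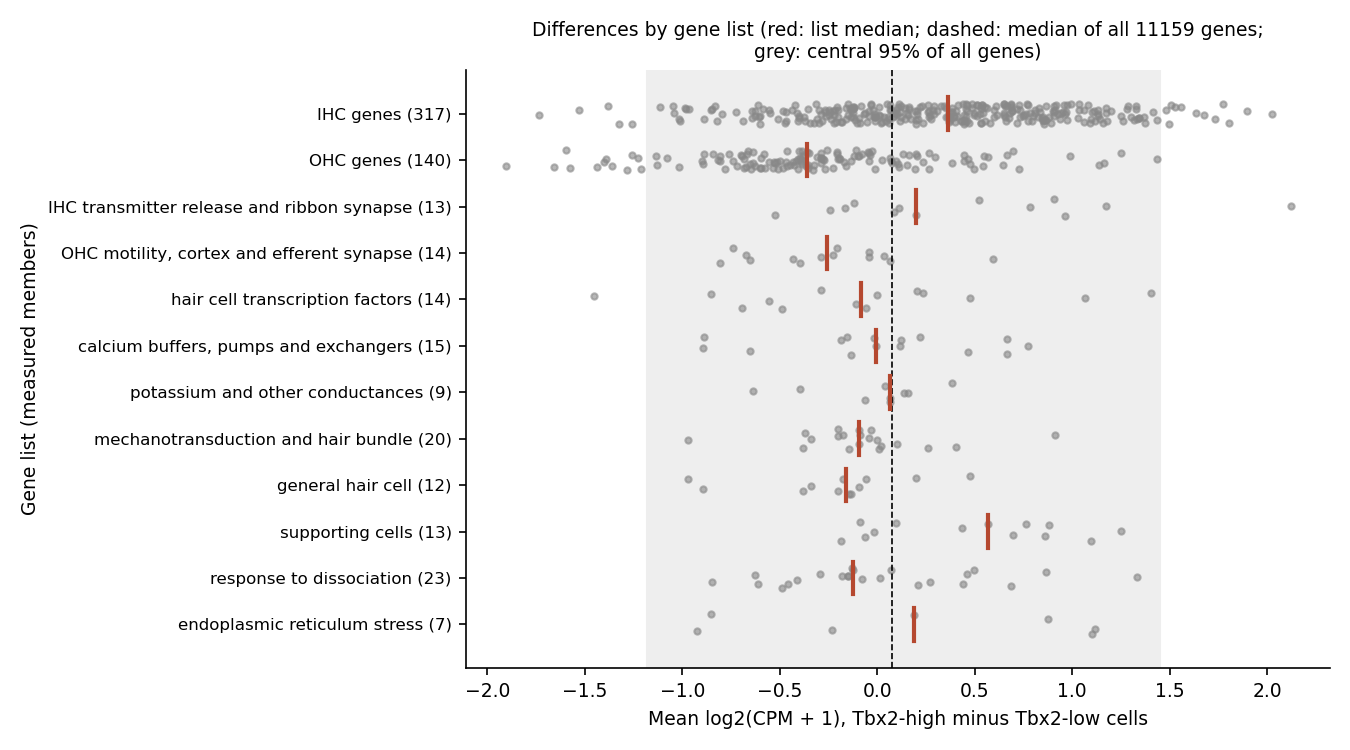
Differences in mean log2(CPM + 1) between Tbx2-high and Tbx2-low cells for the measured members of each gene list (grey points, with the number of members in brackets), with the list median in red, the median of all 11159 genes as a dashed line and their central 95% shaded. The IHC genes centre at 0.36 and the OHC genes at -0.36, and most members of every list lie inside the shaded range.

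Lists by function showed the same order of size. Of 13 measured genes for transmitter release and the ribbon synapse, *Bsn* was past the limit, *Slc17a8* was the other one higher by at least 1, and the median was 0.20. *Ctbp2*, which encodes the ribbon protein RIBEYE, differed by -0.17 and *Cacna1d*, the calcium channel of the release site, by -0.53. Of 14 measured genes for OHC motility, cortex and efferent synapse none reached 1 in size, 3 were positive, and the median was -0.26. *Chrna10* and *Chrna9*, subunits of the efferent acetylcholine receptor, differed by -0.74 and -0.21, and *Kcnn2*, the potassium channel it opens, by -0.39.

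Of 14 measured hair cell transcription factors none was past the limit, and the median was -0.084. Among those of at least 1 in size were *Eya1* (1.41, SD 2.45), a gene of early ear development, and *Rfx3* (-1.45, SD 2.57), a factor of hair cell survival. Medians were -0.0059 for 15 calcium buffers, pumps and exchangers, 0.067 for 9 conductances, -0.092 for 20 genes of mechanotransduction and the hair bundle and -0.16 for 12 general hair cell genes. No member of these 4 lists reached a size of 1. Of 16 other T-box genes, *Tbx6* and *Mga* were measured, at 0.80 and 0.61, and 7 were at 0 in every cell.

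Of 7 genes described as repressed by TBX2 in other cells, 2 were measured. *Cdkn1a*, the cell cycle inhibitor p21, had medians of 156 and 94.4 CPM in Tbx2-high and Tbx2-low cells, with a difference of 0.75 and an SD of 2.84. *Cdh1*, the epithelial cadherin, differed by 0.98. Both leaned to the Tbx2-high cells, within the spread. The response to dissociation (23 genes, median -0.13, *Nr4a1* higher by 1.33) and the response to endoplasmic reticulum stress (7 genes, median 0.19, *Xbp1* and *Asns* higher by 1.12 and 1.10) had no member past the limit.

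Promoters were searched for the T-box core AGGTGTGA on either strand, in the RefSeq windows of 250 bases before to 50 bases after the start on GRCm38.p6, which were held for 8232 of the measured genes. The core was in 76 of these (0.923%). It was in none of the 11 genes past the limit, all of which had a window. It was in 2 of 225 IHC genes and 2 of 98 OHC genes, and these 4 windows of 30 bases are shown, read on the gene strand, because they are the listed genes with the core (in capitals; TCACACCT is the core on the other strand).
Cdkn1a, chr17:29093771-29093800: cagcagccgagAGGTGTGAgccgccgcggt
Atxn7l1, chr12:33314129-33314158: gaagcagcttcTCACACCTcctgtgtgaga
Strc, chr2:121381001-121381030: gctccggtgacAGGTGTGAtgtcaggttac
Tmem229a, chr6:24956338-24956367: acagttagcctTCACACCTgttaggggctt
Differences were 0.75 for *Cdkn1a*, 0.54 for *Atxn7l1*, -0.041 for *Strc*, which encodes the bundle protein stereocilin, and -0.60 for *Tmem229a*, each under its SD. The 7-letter form GGTGTGA, which lies inside the core, was in 3.94% of all 8232 windows, in 9 of 225 IHC genes (4.00%) and in 9 of 98 OHC genes (9.18%). Among genes higher by at least 1 it was in 37 of 751 (4.93%), and among genes lower by at least 1 in 18 of 388 (4.64%). A match is a description of the letters and no sign of binding.

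The same ranking was made in the 55 P14_WT IHCs, with 27 cells of 241 to 754 CPM *Tbx2* against 27 of 49.5 to 231 CPM. Of 11170 genes measured there, 2 were higher (0.0179%) and 13 lower (0.116%) past the same limit, none of them among the 11 genes of the P14_iOHCs, all of which were measured there. Of the 6 genes higher in the P14_iOHCs, *Syn1* and *Mospd2* differed there by 1.17 and 0.52, and *Nelfb*, *Cisd2*, *Bsn* and *Rpusd4* by -0.20, -0.21, -0.42 and -0.96. Of the 5 lower ones, *Gamt* differed by -0.89, and *Xrn2*, *Trrap*, *Agfg1* and *Txnip* by 0.035, 0.29, 0.32 and 2.08. The median difference was -0.021 for the 374 IHC genes and -0.35 for the 92 OHC genes measured in the P14_WT IHCs, against -0.076 for all genes there. *Ocm*, at a median of 229 CPM in these cells, differed by -1.38. The 9 supporting-cell markers measured there had a median of -1.22. The difference between the groups of cells was not tested.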

How the data were processed

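Single cells were sequenced by Smart-Seq HT. Per the paper's methods and the submitters' processing notes, reads were trimmed (Trimmomatic 0.39), aligned to GRCm38 with HISAT2 2.1.0 and counted per gene with HTSeq 0.10.0. The values deposited by the authors are raw counts for 55291 gene symbols. The annotation release, strand setting and handling of multi-mapped reads are not given in the sources used here, so reads shared with overlapping genes or pseudogenes cannot be told apart.

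Counts of the 46 P14_iOHCs, grouped by their labels, were scaled to CPM by their totals and taken as log2(CPM + 1). A gene was measured if 10 or more cells had 5 or more counts. No test was made, since the cells count as 1 sample. The steps were tested on simulated data. The members, lists and alternatives were chosen with earlier results of these data known. Named genes are 12 hair cell markers, up to 10 genes per direction past the limit with counts in 50% or more of the higher set and the same sign in lower and upper totals, and the 5 highest and 5 lowest rho values; predicted genes and pseudogenes were not named. Gene positions are from GENCODE M21 and promoters from RefSeq (GRCm38.p6). Alternatives included TMM (edgeR 4.0.16) and DESeq2 1.42.0 size factors in R 4.3.3. Other steps used Python 3.11.15 with numpy 2.4.6, scipy 1.17.1 and pandas 2.3.3. Reads carry no molecular identifiers, so the counts are of reads.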

Additional observations from a re-analysis of the deposited data

How the results depend on the processing

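The direction of the IHC and OHC medians was kept in all 19 settings tried beside single omissions, from 0.082 to 0.58 for the IHC genes and from -0.72 to -0.16 for the OHC genes, and both ends nearest to 0 came from leaving out the 4 *Slc7a14* cells without ranking again, a setting chosen after seeing the data. With 1 cell left out at a time they ranged from 0.25 to 0.45 and from -0.43 to -0.25. Ranking within the lower and the upper totals, counted among the 19, gave the same sets of cells as the report and only repeats its values.

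The counts past the limit moved more. Leaving out 1 cell gave 2 to 11 higher and 4 to 9 lower genes. Requiring a count in at least 23 cells gave 2 higher genes. The difference of medians gave 587 higher and 251 lower, and the log2 ratio of mean CPM, which has no SD limit, 834 and 635. The 15 highest against the 15 lowest cells gave 102 and 37, the lower totals alone 572 and 334, and the upper totals alone 22 and 11. Cells without a high supporting-cell score gave 28 and 56, cells with *Xist* 348 and 59, and cells with Y-linked RNA 317 and 62. These settings compare fewer cells, with the same limit. Thinning each cell to 6059570 counts and ranking by TMM-scaled *Tbx2* gave 2 lower genes each, and in both the cells of rank 23 and 24 changed places. The residual after the supporting-cell score gave 8 lower genes. Without the 4 *Slc7a14* cells there were 10 higher genes, or 40 when the other 42 cells were ranked again, also chosen after seeing the data. The cause of the other moves was not tested. The counts at a size of 1 alone, 959 and 505, ran from 714 to 2788 higher and from 417 to 1978 lower over the same settings, with 2128 and 1064 on log2(CPM + 0.1).

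The sign of some small differences turned. *Slc26a5* (value in the report -0.041) was 0.13 by medians, 0.15 by mean CPM, 0.11 in the lower totals, 0.033 in cells with Y-linked RNA, 0.023 after the supporting-cell score, and 0.26 without the 4 *Slc7a14* cells or 0.029 when ranked again, and with 1 cell left out it ranged from -0.12 to 0.081. *Ikzf2* (-0.29) was 0.062, 0.29 and 0.082 by medians, by mean CPM and in cells with Y-linked RNA, and 0.28 or 0.13 without the 4 cells, and ranged from -0.43 to 0.063 with 1 cell left out. *Myo7a* (-0.18) was 0.39, 0.14 and 0.062 by medians, by mean CPM and without high supporting-cell scores, and ranged from -0.27 to 0.14. *Otof* (0.20) was -0.25 in cells with *Xist*, -0.11 in cells with Y-linked RNA, -0.040 after thinning, -0.013 after TMM-scaled ranking, and -0.47 or -0.69 without the 4 cells. *Calb2* (0.22) was -0.015 in the 15 against 15 cells, -0.12 in the upper totals, -0.51 in cells with *Xist*, and -0.13 or -0.32 without the 4 cells. The median of all genes was -0.0071 with DESeq2 size factors and -0.032 without high supporting-cell scores.

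The limits are those of 1 sample of cells. The number of mice is not given, the split is on a continuous level, and *Tbx2* counts do not separate the recombined from the intact allele. In a single cell, a gene at 0 that was not captured and one that was not expressed cannot be told apart. No paired analysis was possible because no result came from a test and the cell numbers in the labels pair no cells.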
